A study of Mus musculus with 47 samples.

Results

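The genes described here are ligands, an antagonist, an intracellular inhibitor and target genes of the BMP and TGF-beta pathways, followed across 5 genotypes of mouse fetal muscle progenitors. They were chosen by name as Bmp4, Bmp7, Tgfb2, Fst, Smad6, Smad7, Id1, Id2 and Id3, and every probe of each gene in the probe table was taken. Of these 9 genes, 8 were measured, by 10 of the 25697 probes of the array, with 2 probes each for Id2 and Smad6; Smad7 was not analysed here. All 10 probes passed the filter on dim probes, which kept 12482 probes of 8658 genes.

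Bone morphogenetic proteins (BMPs) and TGF-beta family ligands bind paired serine/threonine kinase receptors, which phosphorylate Smad proteins that carry the signal to the nucleus. Follistatin, the product of Fst, traps activin, myostatin and some BMPs outside the cell, while Smad6 blocks the signal inside it. Id proteins are classical BMP targets: they bind the E proteins that MyoD and its relatives need as partners, and in muscle precursors they hold back differentiation.

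Progenitors were isolated from back muscle at E17.5 by fluorescence-activated sorting as positive for Vcam-1 and negative for CD31, CD45 and Sca1, and their amplified RNA was hybridised to Illumina bead arrays, 1 array a sample. The Rbpj double mutant, shown as Rbpj;MyoD in the figures, was Pax3cre/+;Rbpjflox/flox;MyoD-/- (n = 7), so Cre expressed from the Pax3 locus removed Rbpj, the DNA-binding protein through which Notch receptors act. The DnMaml double mutant, shown as DnMaml;MyoD in the figures, was Pax3cre/+;DnMamlflox/flox;MyoD-/- (n = 8), in which the same Cre turned on DnMaml, a dominant negative form of the Notch coactivator Mastermind. The other groups were MyoD-/- (n = 18), MyoD+/- (n = 4) and wild type (n = 10), all on a mixed background of C57BL/6, 129/Sv and 129/Ola. Both double mutants also lacked MyoD, and no group carried Pax3cre without a Notch allele, so an effect of the Cre allele and one of the Notch alleles cannot be told apart. The labels do not say whether an array held 1 embryo or several, so p-values measure the spread between arrays.

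The 7 chips did not hold the genotypes evenly. Chips 1 and 2 held 2 DnMaml double mutants, 3 MyoD-/- and 3 wild-type samples each, chip 3 held 3 Rbpj double mutants and 4 MyoD-/- samples, and chips 4 to 7 held all 5 genotypes. Array medians ran from 64.1 to 250 intensity units and 8761 to 11819 probes were detected per array. Myod1 was lower in MyoD-/- than in wild type by a log2 difference of -1.99 ± 0.0977 (SE, limma adjusted p = 4.17e-19), although its probe was detected in 47 of 47 arrays. The labels do not place the probe relative to the deletion. The 3 probes of Rbpj were detected in 0 of 47 arrays and could not show its deletion. Vcam1, the gene of the sorting marker, was detected in 47 of 47 arrays, whereas the progenitor genes Pax3, Pax7 and Myf5 were detected in 0, 2 and 2 arrays. Of the genes of markers sorted against, Ptprc (CD45, leukocytes) was detected in 0 of 47 arrays. Pecam1 (CD31, endothelial cells) was detected in 9 and 6 of 47 arrays by its 2 probes, the first in 1 of 7 Rbpj double-mutant, 1 of 8 DnMaml double-mutant, 2 of 18 MyoD-/-, 2 of 4 MyoD+/- and 3 of 10 wild-type arrays. Ly6a (Sca1) was not analysed here.

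A few arrays stood apart. MyoD-/- replicate 1 had the highest Fst level of all 47 samples, at 10.69 against 7.23 to 8.69 in the other 17 MyoD-/- samples, and its summed level of 11 fibroblast marker probes (16.48) was the highest of its group, against 15.23 to 15.79 in the others. MyoD-/- replicates 16 and 18 differed from the other MyoD-/- arrays of chips 4 to 7 by a median absolute log2 difference of 0.304 to 0.471 over 12 pairs, against 0.187 to 0.332 among the other 15 pairs. Replicates 16 and 18, at the same position of chips 6 and 7, differed from each other by 0.225. The 6 array pairs at 1 position of these chips, MyoD-/- pairs included, differed by 0.189 to 0.234. The 20 other pairs of 1 genotype on chips 4 to 7, with MyoD-/- pairs left out, differed by 0.176 to 0.374. In 8 of 12 arrays the best correlation was with the array at the same position, below the 75% set for averaging. Each array was therefore counted as a sample, though such pairs may not be independent. Results that rest on MyoD-/- replicates 1, 16 and 18 are given with and without them. This alternative was chosen after seeing the data.

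Promoter sequence was available for 5 of the 9 genes from RefSeq (build GRCm38.p6), as the 250 bases before the start site. Each was searched on both strands for CANNTG, the E box that MyoD and other basic helix-loop-helix (bHLH) factors bind, for TGGGAA, the core bound by Rbpj, and for GGCGCC, a motif bound by BMP-activated Smads. The promoters of Bmp4 and Id2 are shown, a ligand and a target gene that both hold E boxes, with the E boxes in capitals.
Bmp4, chr14:46390670-46390919, minus strand: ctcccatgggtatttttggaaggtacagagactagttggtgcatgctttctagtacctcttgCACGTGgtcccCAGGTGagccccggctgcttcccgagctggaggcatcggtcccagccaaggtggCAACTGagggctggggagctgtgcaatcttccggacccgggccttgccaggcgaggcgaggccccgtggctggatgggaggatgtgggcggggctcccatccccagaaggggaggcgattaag
Id2, chr12:25096093-25096342, minus strand: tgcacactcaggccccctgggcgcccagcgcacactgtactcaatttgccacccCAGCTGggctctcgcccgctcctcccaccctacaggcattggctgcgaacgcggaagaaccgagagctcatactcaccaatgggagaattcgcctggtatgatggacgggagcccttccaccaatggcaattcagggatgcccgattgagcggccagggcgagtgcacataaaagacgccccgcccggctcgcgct
Bmp4 holds 3 E boxes and Id2 holds 1 E box and 1 GGCGCC, none of which overlap. Tgfb2 holds 1 E box, and Id3 and Smad6 hold 0; TGGGAA is in 0 of the 5. Among 32851 promoters of the same length, 66.2% hold CANNTG, 21.6% hold TGGGAA and 9.59% hold GGCGCC, so most promoters hold an E box.

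**Figure D1:**
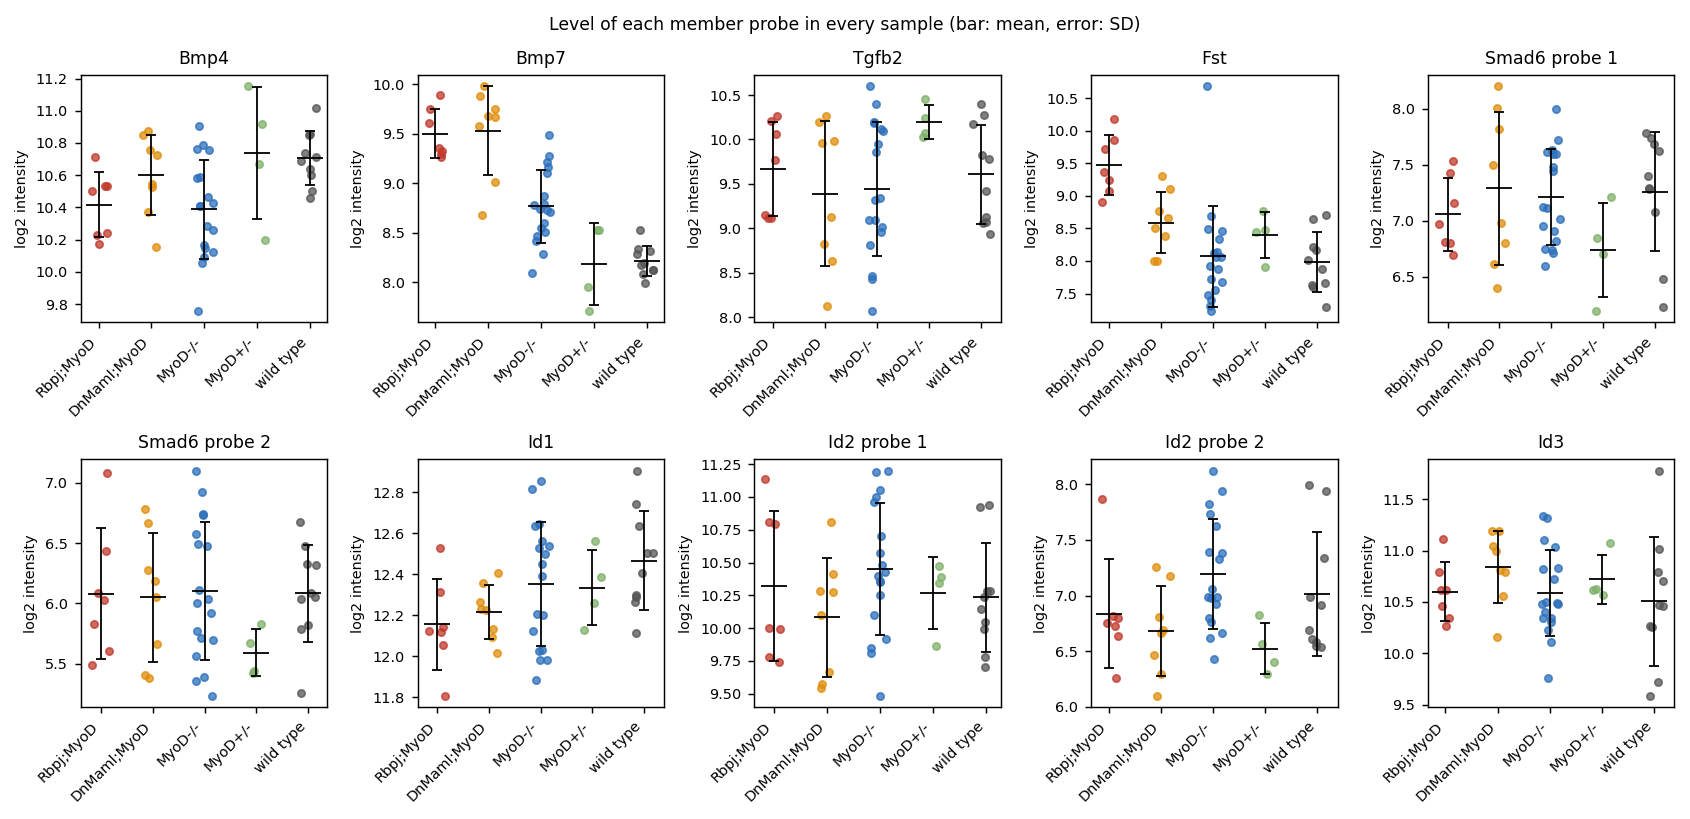
Level of each probe in every sample (log2 intensity, vertical axis) in the 5 genotypes; bars are means and error bars are SD. Bmp7 averaged 9.50 and 9.53 in the double mutants and 8.76 in MyoD-/-, against 8.18 in MyoD+/- and 8.21 in wild type, and Fst averaged highest in Rbpj double mutants, with 1 MyoD-/- sample at 10.69.

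Bmp7, a secreted BMP ligand, was the 1 gene of the set called in all 3 comparisons along the series of genotypes. It was higher in MyoD-/- than in wild type and higher again in both double mutants. Its log2 level averaged 9.50 ± 0.248 (SD, n = 7) in Rbpj double mutants, 9.53 ± 0.448 (SD, n = 8) in DnMaml double mutants and 8.76 ± 0.368 (SD, n = 18) in MyoD-/-. It averaged 8.18 ± 0.414 in MyoD+/- (SD, n = 4) and 8.21 ± 0.154 in wild type (SD, n = 10). The probe was detected in 47 of 47 arrays.

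Rbpj double-mutant samples had Bmp7 at 9.27 to 9.89, with a median of 9.36. DnMaml double-mutant samples had it at 8.68 to 9.98, with a median of 9.67. These ranges overlap, and 2 DnMaml double-mutant samples, at 8.68 and 9.02, lay below every Rbpj double-mutant sample. MyoD-/- samples ran from 8.09 to 9.49 with a median of 8.73, which overlaps both double mutants. The 4 MyoD+/- samples had 8.53, 7.71, 8.53 and 7.96, and wild-type samples ran from 7.99 to 8.52 with a median of 8.18. Every double mutant sample lay above every wild-type and every MyoD+/- sample.

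MyoD-/- exceeded wild type by a log2 difference of 0.50 ± 0.127 (SE, 1.41-fold; limma adjusted p = 0.00345), and 17 of 18 samples lay above the wild-type median. Bmp7 was the 1 of 10 probes called in this comparison, against 21.3% of all probes tested (10.7% higher and 10.6% lower). Against MyoD+/-, MyoD-/- was higher by 0.62 ± 0.178 (adjusted p = 0.0331), where 4.08% of all probes were called. The 6 chips that held both MyoD-/- and wild type gave differences of 0.0179 to 1.19, all above 0, with chip 5 the lowest.

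DnMaml double mutants exceeded MyoD-/- by 0.80 ± 0.135 (1.74-fold; adjusted p = 4.53e-05), with 7 of 8 samples above the MyoD-/- median. Again Bmp7 was the 1 probe of 10 that was called, against 10.4% of all probes (5.7% higher and 4.68% lower). All 6 chips gave a difference above 0, of 0.447 to 1.49. Rbpj double mutants exceeded MyoD-/- by 0.67 ± 0.143 (1.60-fold; adjusted p = 0.000437), with 7 of 7 samples above the MyoD-/- median and 0.322 to 1.11 on 5 of 5 chips. This was 1 of 2 probes called of 10, against 23.2% of all probes (11.3% higher and 11.9% lower). The comparisons of both double mutants share the 18 MyoD-/- samples.

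Between the double mutants Bmp7 was not shown to differ: the log2 difference of Rbpj double mutants minus DnMaml double mutants was -0.12 (95% interval -0.48 to 0.23, adjusted p = 0.797). On the 4 chips with both, Rbpj double mutants were lower by 0.239 to 0.388 in each. Against wild type, both exceeded it without overlap. DnMaml double mutants did so by 1.30 ± 0.146 (2.46-fold, adjusted p = 3.94e-09; 22.3% of probes called) and Rbpj double mutants by 1.17 ± 0.171 (2.26-fold, adjusted p = 9.12e-07; 22.8% of probes called). Against MyoD+/- the differences were 1.42 in DnMaml double mutants (adjusted p = 1.18e-06; 5.74% of probes called) and 1.30 in Rbpj double mutants (6.18e-06; 13% of probes called). Without MyoD-/- replicates 1, 16 and 18, the differences were 0.42 for MyoD-/- against wild type (adjusted p = 0.0141), 0.88 for DnMaml double mutants against MyoD-/- (1.4e-05) and 0.75 for Rbpj double mutants against MyoD-/- (0.000111).

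**Figure D2:**
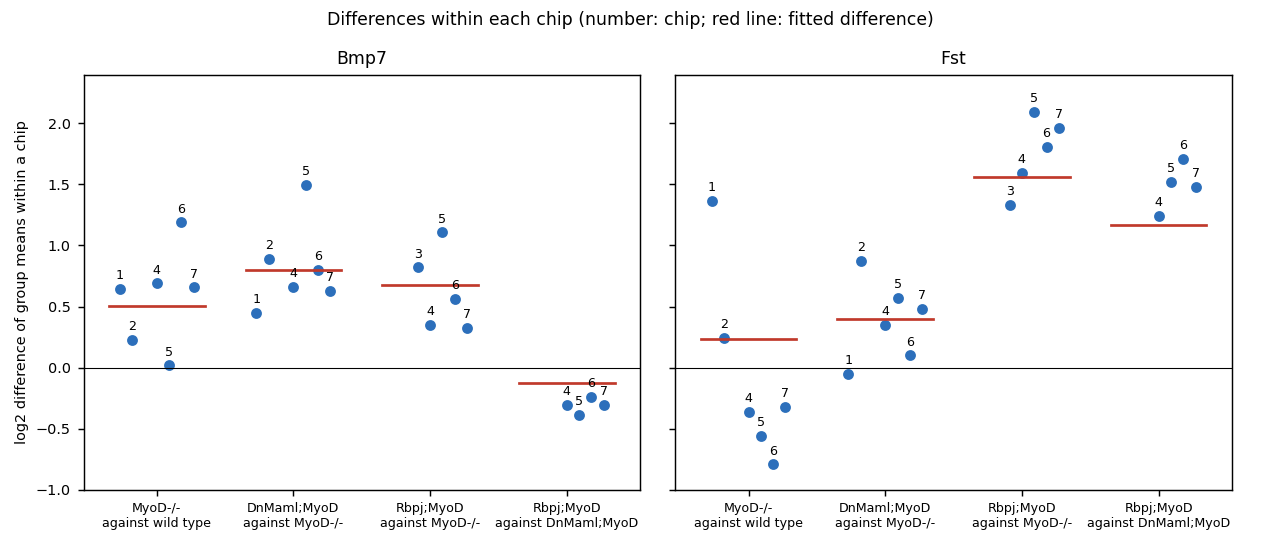
Differences in Bmp7 (left) and Fst (right) computed within each chip (log2, vertical axis; points numbered by chip), with the fitted difference over all chips as a red line, for 4 comparisons. Bmp7 lies above 0 on every chip in the first 3 comparisons and below 0 on 4 of 4 chips between the double mutants, where Fst lies at 1.24 to 1.71.

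Among Schwann and neural crest markers, Ngfr moved with Bmp7 in both double mutants, while Mbp did so in DnMaml double mutants alone. Of the 10 genes listed for these cells, Mbp (myelin basic protein) and Ngfr (a neurotrophin receptor) were tested; in DnMaml double mutants against MyoD-/- Mbp was higher by 2.23 ± 0.280 (adjusted p = 2.04e-07) and Ngfr by 0.96 ± 0.172 (0.000114), and in Rbpj double mutants Ngfr was higher by 1.54 ± 0.182 (2.13e-08), while Mbp gave -0.05 (0.933). Their summed log2 level was 9.96 to 11.23 in Rbpj double mutants, 9.72 to 11.004 in DnMaml double mutants, 8.25 to 9.96 in MyoD-/-, 9.46 to 10.45 in MyoD+/- and 8.41 to 10.14 in wild type. Between the double mutants, where Bmp7 was not shown to differ, Mbp was lower in Rbpj double mutants by -2.28 ± 0.363 (adjusted p = 3.45e-05). The part of Mbp and Ngfr in the Bmp7 difference was not tested. S100b, Foxd3 and Cdh19 were detected in 0 of 47 arrays. In MyoD-/- against wild type, where Bmp7 was higher, Ngfr was lower (-0.51 ± 0.162, adjusted p = 0.021). In bulk RNA, fewer cells of a type and less RNA per cell cannot be told apart.

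Differentiating-muscle genes moved with Bmp7 in DnMaml double mutants and the other way in the other 2 comparisons where Bmp7 was higher. Of 24 probes for 15 of the 18 genes listed, 18 were higher and 2 lower in DnMaml double mutants than in MyoD-/- (median log2 difference 1.04, against -0.02 over all probes). In Rbpj double mutants against MyoD-/- 3 were higher and 10 lower, and in MyoD-/- against wild type 2 were higher and 13 lower. The shares of all probes were 5.7% and 4.68%, 11.3% and 11.9%, and 10.7% and 10.6% in these 3 comparisons. Both Mymk probes, called in Rbpj double mutants against MyoD-/-, were detected in 0 Rbpj double-mutant arrays. There, limiting the 4 probes undetected in all arrays of a group to the lowest detected level moved the median from -0.40 to -0.20. The troponin gene Tnnc1 was higher in DnMaml double mutants by 2.32 ± 0.161 (adjusted p = 1.74e-13). The summed level was 15.41 to 15.89 in Rbpj double mutants, 16.22 to 16.43 in DnMaml double mutants, 15.45 to 16.10 in MyoD-/-, 16.02 to 16.37 in MyoD+/- and 15.29 to 16.40 in wild type, so DnMaml double mutants overlapped neither Rbpj double mutants nor MyoD-/-. The part of these genes in the Bmp7 difference was not tested.

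The transcripts whose levels followed Bmp7 most closely over the 47 samples, after chip means were removed, were Gap43 (Pearson r = 0.866), Plppr5 (0.866) and Eva1b (0.857). Gap43 encodes a growth-associated membrane protein of axons. These correlations describe samples that share genotype and hybridisation.

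Bmp4, a ligand close to Bmp2, was detected in 47 of 47 arrays and was called in 0 of the 5 main comparisons. Rbpj double-mutant samples ran from 10.17 to 10.71 (median 10.50), DnMaml double mutants from 10.16 to 10.88 (10.63), MyoD-/- from 9.76 to 10.90 (10.41) and wild type from 10.46 to 11.02 (10.70), while the 4 MyoD+/- samples had 10.92, 10.67, 10.20 and 11.15. All ranges overlap. MyoD-/- minus wild type was -0.28 ± 0.112 (adjusted p = 0.0707), with 5 of 6 chips below 0, at -0.932 to 0.0840; the 95% interval was -0.50 to -0.05. This value lay near the threshold: it was called in 4 of 21 other settings and in 3 of 47 leave-outs of 1 sample, those of MyoD-/- replicates 1, 4 and 6. Over the settings it ran from -0.57 to -0.05 and over the leave-outs from -0.32 to -0.21. Neither double mutant was shown to differ from MyoD-/-, with 0.18 ± 0.118 in DnMaml double mutants (adjusted p = 0.354) and 0.07 ± 0.126 in Rbpj double mutants (0.724).

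Tgfb2, a TGF-beta ligand, had levels that differed by chip, with little overlap. On chips 1 to 3 its level ran from 8.07 to 9.82 over 23 samples, and on chips 4 to 7 from 9.77 to 10.61 over 24 samples. The group means, without allowing for chip, were 9.67, 9.39, 9.44, 10.20 and 9.61 in Rbpj double mutants, DnMaml double mutants, MyoD-/-, MyoD+/- and wild type, and all 4 MyoD+/- samples (10.02 to 10.45) were on chips 4 to 7. With chip in the fit, MyoD-/- minus wild type was -0.30 ± 0.117 (adjusted p = 0.0634), with 4 of 6 chips below 0, at -0.744 to 0.216. It was called without MyoD-/- replicates 16 and 18 (-0.34, adjusted p = 0.0292) and not without replicates 1, 16 and 18 (-0.31, adjusted p = 0.0532). It was called in 3 of 21 other settings, among them without chip 7 (-0.37, adjusted p = 0.038), and in 4 of 47 leave-outs of 1 sample, those of wild-type replicates 7 and 10 and MyoD-/- replicates 3 and 18. Over the settings it ran from -0.55 to 0.02, below 0 in 20 of 21, and over the leave-outs from -0.35 to -0.22. Neither double mutant was shown to differ from MyoD-/-, with -0.05 in DnMaml double mutants (95% interval -0.30 to 0.20) and -0.01 in Rbpj double mutants (-0.28 to 0.25).

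Fst, the gene of the secreted antagonist follistatin, had its highest group mean in Rbpj double mutants and was the 1 gene of the set that separated the double mutants. Its log2 level averaged 9.48 ± 0.458 (SD, n = 7) in Rbpj double mutants, 8.59 ± 0.470 (SD, n = 8) in DnMaml double mutants and 8.07 ± 0.779 (SD, n = 18) in MyoD-/-. It averaged 8.40 ± 0.357 in MyoD+/- (SD, n = 4) and 7.98 ± 0.461 in wild type (SD, n = 10). The probe was detected in 46 of 47 arrays, all but 1 wild-type array.

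Rbpj double-mutant samples had Fst at 8.90 to 10.18, with a median of 9.37. DnMaml double-mutant samples had 8.0 to 9.30 (median 8.58), so the 2 ranges overlap between 8.90 and 9.30. MyoD-/- samples ran from 7.23 to 8.69 apart from replicate 1 at 10.69 (median of all 18, 7.99). MyoD+/- samples had 8.76, 7.90, 8.44 and 8.48, and wild-type samples ran from 7.29 to 8.70 (median 7.94). Every Rbpj double-mutant sample lay above every wild-type and MyoD+/- sample, and above all MyoD-/- samples but replicate 1.

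Rbpj double mutants exceeded MyoD-/- by a log2 difference of 1.56 ± 0.270 (SE, 2.95-fold; limma adjusted p = 2.42e-05), with 7 of 7 samples above the MyoD-/- median. The 5 chips with both gave 1.33 to 2.09. Without MyoD-/- replicates 1, 16 and 18 the difference was 1.60 (adjusted p = 2.38e-07). Against wild type it was 1.80 ± 0.323 (3.47-fold; adjusted p = 3.52e-05) and against MyoD+/- 1.25 ± 0.382 (2.38-fold; adjusted p = 0.0212).

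Rbpj double mutants also exceeded DnMaml double mutants, by 1.16 ± 0.330 (2.24-fold; 95% interval 0.50 to 1.83; adjusted p = 0.0242), with 7 of 7 samples above the DnMaml double-mutant median and differences of 1.24 to 1.71 on 4 of 4 chips. It was the 1 of 10 probes called here, against 6.17% of all probes tested (2.93% higher and 3.24% lower). The direction held in every setting and the call did not: over 21 other settings the difference ran from 0.886 to 1.49 and was called in 13, and over 47 leave-outs of 1 sample it ran from 1.03 to 1.23 and was called in 42. The call was lost without DnMaml double-mutant replicate 5 or 7 or Rbpj double-mutant replicate 5, 6 or 7, with adjusted p between 0.0523 and 0.0778. Scaling to a common array median also lost it (adjusted p = 0.0777), as did averaging the 6 array pairs of chips 6 and 7 (adjusted p = 0.098).

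DnMaml double mutants minus MyoD-/- was 0.40 ± 0.254 (95% interval -0.12 to 0.91, adjusted p = 0.345), and 5 of 6 chips were above 0. MyoD-/- replicate 1 decided this call: without it the difference was 0.60 (adjusted p = 0.037). Without replicates 1, 16 and 18 it was 0.57 (adjusted p = 0.049). DnMaml double-mutant samples on chips 1 and 2 had Fst at 8.51 to 9.30, and those on chips 4 to 7 at 8.0 to 8.65. MyoD-/- minus wild type was 0.24 ± 0.240 (adjusted p = 0.531), and 0.0121 without replicate 1. On chips 1 and 2 MyoD-/- was the higher of the pair, and on chips 4 to 7 it was the lower.

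**Figure D3:**
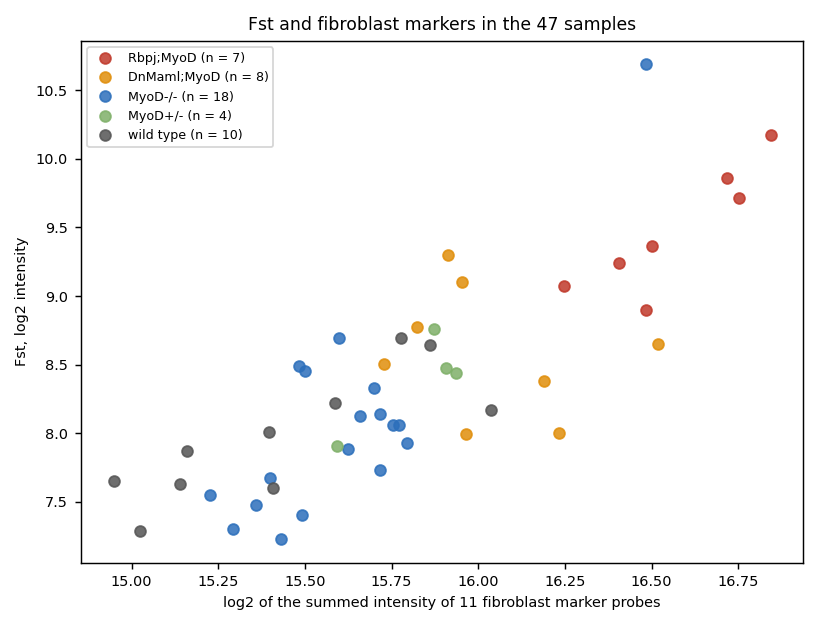
Fst level (log2 intensity, vertical axis) against the log2 of the summed intensity of 11 fibroblast marker probes (horizontal axis) in the 47 samples, coloured by genotype. Rbpj double-mutant samples lie at the upper right, with marker sums of 16.25 to 16.84, beside MyoD-/- replicate 1 at 16.48 and 10.69.

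Fibroblast markers moved with Fst in Rbpj double mutants. Of 11 probes for 9 of the 12 genes in this list, 10 were higher in Rbpj double mutants than in MyoD-/- and 0 lower, with a median log2 difference of 1.13 against -0.03 over all probes. Among them were the growth factor receptor gene Pdgfra (1.96 ± 0.314, adjusted p = 6.61e-06), the collagen gene Col1a1 (1.65 ± 0.256, 3.68e-06) and the proteoglycan gene Lum (1.59 ± 0.290, 5.7e-05). In Rbpj double mutants against DnMaml double mutants 6 of 11 were higher and 0 lower (1 under scaling to a common array median). In DnMaml double mutants against MyoD-/- 3 were higher (1 under that scaling), and in MyoD-/- against wild type 2 were, with a median of -0.14. Osr1, called in MyoD-/- against wild type, was detected in 7 MyoD-/- and 0 wild-type arrays. The summed level was 16.25 to 16.84 in Rbpj double mutants, 15.73 to 16.52 in DnMaml double mutants, 15.23 to 16.48 in MyoD-/-, 15.59 to 15.94 in MyoD+/- and 14.95 to 16.04 in wild type. The shares of all probes called higher were 11.3% in Rbpj double mutants and 5.7% in DnMaml double mutants against MyoD-/-. They were 10.7% in MyoD-/- against wild type and 2.93% in Rbpj double mutants against DnMaml double mutants. Postn was detected in 1 array and Tcf21 in 2 arrays. The part of these markers in the Fst differences was not tested.

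Markers of muscle progenitors, red cells, and smooth muscle and pericytes also moved in Rbpj double mutants against MyoD-/-. Over all probes 11.3% were higher and 11.9% lower there. Of 10 progenitor probes 8 were lower and 2 higher, among the lower Itga7, a laminin receptor subunit (-1.54 ± 0.116, adjusted p = 2.21e-13), and Vcam1 (-0.59 ± 0.112, 0.000101). All 4 erythroid probes tested were lower (3 under scaling to a common array median), such as Hba-a1, an alpha globin gene (-1.61 ± 0.215, 2.18e-07). Of 14 smooth muscle and pericyte probes 9 were lower and 3 higher. The lower ones held the 3 probes of the adhesion molecule gene Mcam, at -1.07, -1.14 and -1.02, and the 4 probes of Acta2, smooth muscle actin, at -0.51 to -0.74, and the higher ones were Abcc9, Pdgfrb and Des, which muscle cells also make. In DnMaml double mutants against MyoD-/- progenitor probes called lower were Itga7 (-0.94), Msc (-0.73), Cxcr4 (-0.71), Cav1 (-0.48) and Vcam1 (-0.33). Those called higher were Des (0.56) and Sdc3 (0.40). In MyoD-/- against wild type Megf10 (-0.91) and Itga7 (-0.81) were lower, and Vcam1 (0.68) and Sdc4 (0.58) higher. The progenitor median was -0.81 in Rbpj and -0.31 in DnMaml double mutants against MyoD-/-, and 0.16 in MyoD-/- against wild type.

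Most of these lists also moved between the double mutants, where Fst was called and 6.17% of all probes were. Of the 24 differentiating-muscle probes 17 were lower and 0 higher in Rbpj double mutants than in DnMaml double mutants. Among the 17 were both Mymk probes, a Casq2 probe and a Mef2c probe, detected in 0 Rbpj double-mutant arrays. Of the 4 erythroid probes 3 were lower, Hba-a1 by -1.69 ± 0.263 (adjusted p = 2.16e-05), Alas2, a heme synthesis enzyme gene, by -1.96 ± 0.342 (0.000138) and Hbb-bt, a beta globin gene, by -1.85 ± 0.351 (0.000406). Of the 14 smooth muscle and pericyte probes 7 were lower and 1 higher (0 under scaling to a common array median). The lower ones were the 4 Acta2 probes at -0.91 to -1.22 and the 3 Mcam probes at -0.67 to -0.81. Of the 10 progenitor probes 3 were lower (1 under that scaling).

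The summed erythroid level was 12.26 to 14.504 in Rbpj double mutants, 14.502 to 15.37 in DnMaml double mutants, 13.26 to 15.68 in MyoD-/-, 15.56 to 15.78 in MyoD+/- and 12.94 to 15.53 in wild type. That of smooth muscle and pericyte probes was 14.57 to 15.51, 15.31 to 16.05, 14.91 to 15.55, 15.75 to 15.92 and 15.45 to 16.04 in the same 5 groups. In MyoD-/- against wild type 1 smooth muscle and pericyte probe was higher and 6 lower. In DnMaml double mutants against MyoD-/- 4 were higher and 4 lower. Of 8 endothelial probes 0 were higher and 3 lower in MyoD-/- against wild type, 2 and 0 in DnMaml double mutants and 1 and 1 in Rbpj double mutants against MyoD-/-, and 0 and 2 between the double mutants. Of 10 tendon and cartilage probes 1 and 0, 1 and 0, 2 and 1, and 0 and 1 were called in those comparisons, and of leukocyte markers 1 probe was tested and 0 were called. The tendon and cartilage probe called in MyoD-/- against wild type, of Mkx, was detected in 8 MyoD-/- and 0 wild-type arrays. Over all probes 10.7% were higher and 10.6% lower in MyoD-/- against wild type. The shares were 5.7% and 4.68% in DnMaml double mutants and 11.3% and 11.9% in Rbpj double mutants against MyoD-/-. Between the double mutants they were 2.93% and 3.24%. The part of all these markers in the Fst and Bmp7 differences was not tested.

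Over the 47 samples the transcripts closest to Fst were Fgf7, a fibroblast growth factor (Pearson r = 0.892), Ntrk2, a neurotrophin receptor (0.887), and Twist1, a mesodermal bHLH factor (0.870), with chip means removed. Fst and Bmp7 themselves had r = 0.362.

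**Figure D4:**
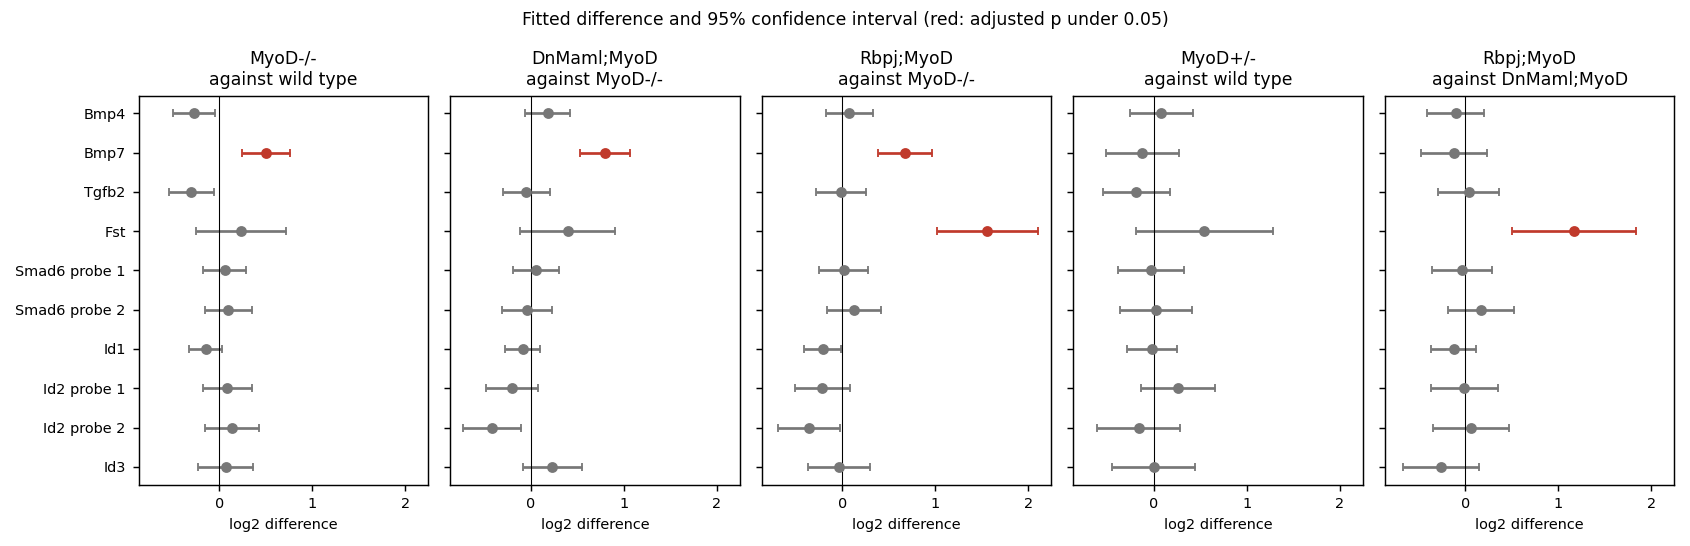
Fitted log2 difference (points, horizontal axis) and 95% interval (bars) of each probe in the 5 main comparisons; red marks an adjusted p under 0.05. The red points are Bmp7 in the first 3 panels at 0.50, 0.80 and 0.67, and Fst in the third and last panels at 1.56 and 1.16.

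Smad6, the inhibitory Smad that shuts off BMP receptor signalling, was not shown to differ in any of the 5 main comparisons. Its first probe was detected in 45 of 47 arrays. It had 6.70 to 7.53 in Rbpj double mutants (median 6.97), 6.40 to 8.20 in DnMaml double mutants (7.24), 6.60 to 8.0 in MyoD-/- (7.12), 6.19 to 7.21 in MyoD+/- (6.77) and 6.23 to 7.78 in wild type (7.35), and all ranges overlap. The log2 differences were 0.06 ± 0.116 in MyoD-/- against wild type, 0.05 ± 0.122 in DnMaml double mutants against MyoD-/- and 0.01 ± 0.130 in Rbpj double mutants against MyoD-/- (adjusted p = 0.767, 0.839 and 0.957). Their 95% intervals lay within -0.25 to 0.30. The second probe was detected in 4 of 47 arrays, 1 DnMaml double-mutant and 3 MyoD-/- arrays, so it was not well above background in any Rbpj double-mutant, MyoD+/- or wild-type array and gives no usable fold.

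Of the 4 probes of the Id genes, 0 were called in the 5 main comparisons. Id1 was detected in 47 of 47 arrays, with Rbpj double-mutant samples at 11.81 to 12.53 (median 12.12) and DnMaml double-mutant samples at 12.01 to 12.41 (12.23). MyoD-/- samples had 11.88 to 12.86 (12.42), MyoD+/- samples had 12.39, 12.56, 12.26 and 12.13, and wild-type samples had 12.11 to 12.91 (12.45). The ranges overlap, but 1 of 7 Rbpj double-mutant and 0 of 8 DnMaml double-mutant samples lay above the MyoD-/- median. The log2 differences from MyoD-/- were -0.21 ± 0.0990 in Rbpj double mutants (adjusted p = 0.119) and -0.08 ± 0.0932 in DnMaml double mutants (0.621). Against wild type, Id1 was lower in Rbpj double mutants by -0.36 ± 0.118 (adjusted p = 0.0231), with 3 of 4 chips below 0, at -0.495 to 0.00524. It was 1 of 3 probes called there, with 2 higher, against 22.8% of all probes.

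Id2 was read by 2 probes whose levels had r = 0.571 over the 47 samples. The first, detected in 47 of 47 arrays, had 9.74 to 11.14 in Rbpj double mutants (median 9.9998), 9.54 to 10.81 in DnMaml double mutants (10.19), 9.48 to 11.20 in MyoD-/- (10.41), 9.87 to 10.48 in MyoD+/- (10.37) and 9.71 to 10.94 in wild type (10.19). The second, detected in 40 of 47 arrays and in 4 of 7 Rbpj double-mutant arrays, ran from 6.26 to 7.87, 6.10 to 7.26, 6.43 to 8.12, 6.299 to 6.83 and 6.54 to 7.99 in the same 5 groups. All ranges overlap for both probes. In DnMaml double mutants against MyoD-/- they gave -0.20 ± 0.137 (adjusted p = 0.372) and -0.41 ± 0.155 (0.0789), the second below 0 on 6 of 6 chips. In Rbpj double mutants against MyoD-/- they gave -0.22 ± 0.146 (0.304) and -0.36 ± 0.164 (0.115). On the 4 chips with all 5 genotypes, both probes were called lower in DnMaml double mutants (-0.42, adjusted p = 0.0236, and -0.38, adjusted p = 0.0452). In that setting 2282 of all 12482 probes were called, 1210 of them lower, against 1296 with 584 lower over all chips.

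Id3 was detected in 47 of 47 arrays and gave no call. Rbpj double-mutant samples had 10.26 to 11.12 (median 10.62), DnMaml double mutants 10.16 to 11.19 (10.90), MyoD-/- 9.75 to 11.34 (10.48), MyoD+/- 10.57 to 11.08 (10.62) and wild type 9.58 to 11.78 (10.47). The wild-type range held all other samples. The log2 differences were 0.07 ± 0.146 in MyoD-/- against wild type (adjusted p = 0.782), 0.23 ± 0.155 in DnMaml double mutants (0.365) and -0.03 ± 0.165 in Rbpj double mutants (0.913), both against MyoD-/-.

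MyoD+/- was compared with wild type to ask whether loss of a single MyoD copy changed these genes. No probe passed in limma: 0 of 10 here and 0% of all 12482 probes. At an unadjusted p under 0.05 there were 0 of the 10 and 535 of all probes (4.29%). The largest estimates were 0.54 for Fst (95% interval -0.19 to 1.28) and 0.26 for Id2 probe 1 (-0.14 to 0.65). Over the 10 probes the median log2 difference was 0.08 in MyoD-/- against wild type, 0.00 in DnMaml double mutants and 0.00 in Rbpj double mutants against MyoD-/-. Over all probes it was -0.00, -0.02 and -0.03. The median size was 0.142, 0.192 and 0.168 for the 10 probes, against 0.160, 0.141 and 0.181 for all.

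The rest of the pathway was read through lists of pathway genes, with the 8 genes above left out of the counts. A gene was counted where any of its probes was called, while the shares over all probes were 21.3%, 10.4% and 23.2% in MyoD-/- against wild type and in DnMaml double mutants and Rbpj double mutants against MyoD-/-, in that order. Of 6 other genes tested in the list of BMP and GDF ligands, 2 were higher and 1 lower in MyoD-/- against wild type, 1 higher and 1 lower in DnMaml double mutants, and 4 higher and 1 lower in Rbpj double mutants, the last 2 against MyoD-/-. Bmp1 is counted in this list by its name, though it encodes a protease that trims procollagen and frees BMPs, and not a ligand. Bmp1 was lower in MyoD-/- (-0.74 ± 0.0915, adjusted p = 5.28e-08) and higher in Rbpj double mutants by 0.53 ± 0.0909 (1.83e-05), on another probe, with the second lost under scaling to a common median. Bmp3, a ligand that opposes other BMPs, was higher in DnMaml double mutants by 0.83 and in Rbpj double mutants by 1.12 (adjusted p = 0.0031 and 6.44e-05), and was detected in 8 of 8 and 6 of 7 of their arrays and in 10 of 18 MyoD-/- arrays. Its call in MyoD-/- against wild type (adjusted p = 0.00752) is given without a fold, since it was detected in 1 of 10 wild-type arrays. Gdf10, a BMP3-related ligand, was higher in Rbpj double mutants by 1.56 ± 0.272 (2.65e-05). Bmp6, counted among these calls, was detected in 9 of 18 MyoD-/- arrays and in 0 Rbpj double-mutant and 0 wild-type arrays, too near background for a fold. The other gene counted as higher in Rbpj double mutants was detected in at most 7 of 47 arrays. The median over the 11 probes of this list, Bmp4 and Bmp7 included, was 0.53 in Rbpj double mutants against MyoD-/-, against -0.03 over all probes. That median is the value of the Bmp1 probe whose call was lost under scaling.

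**Figure D5:**
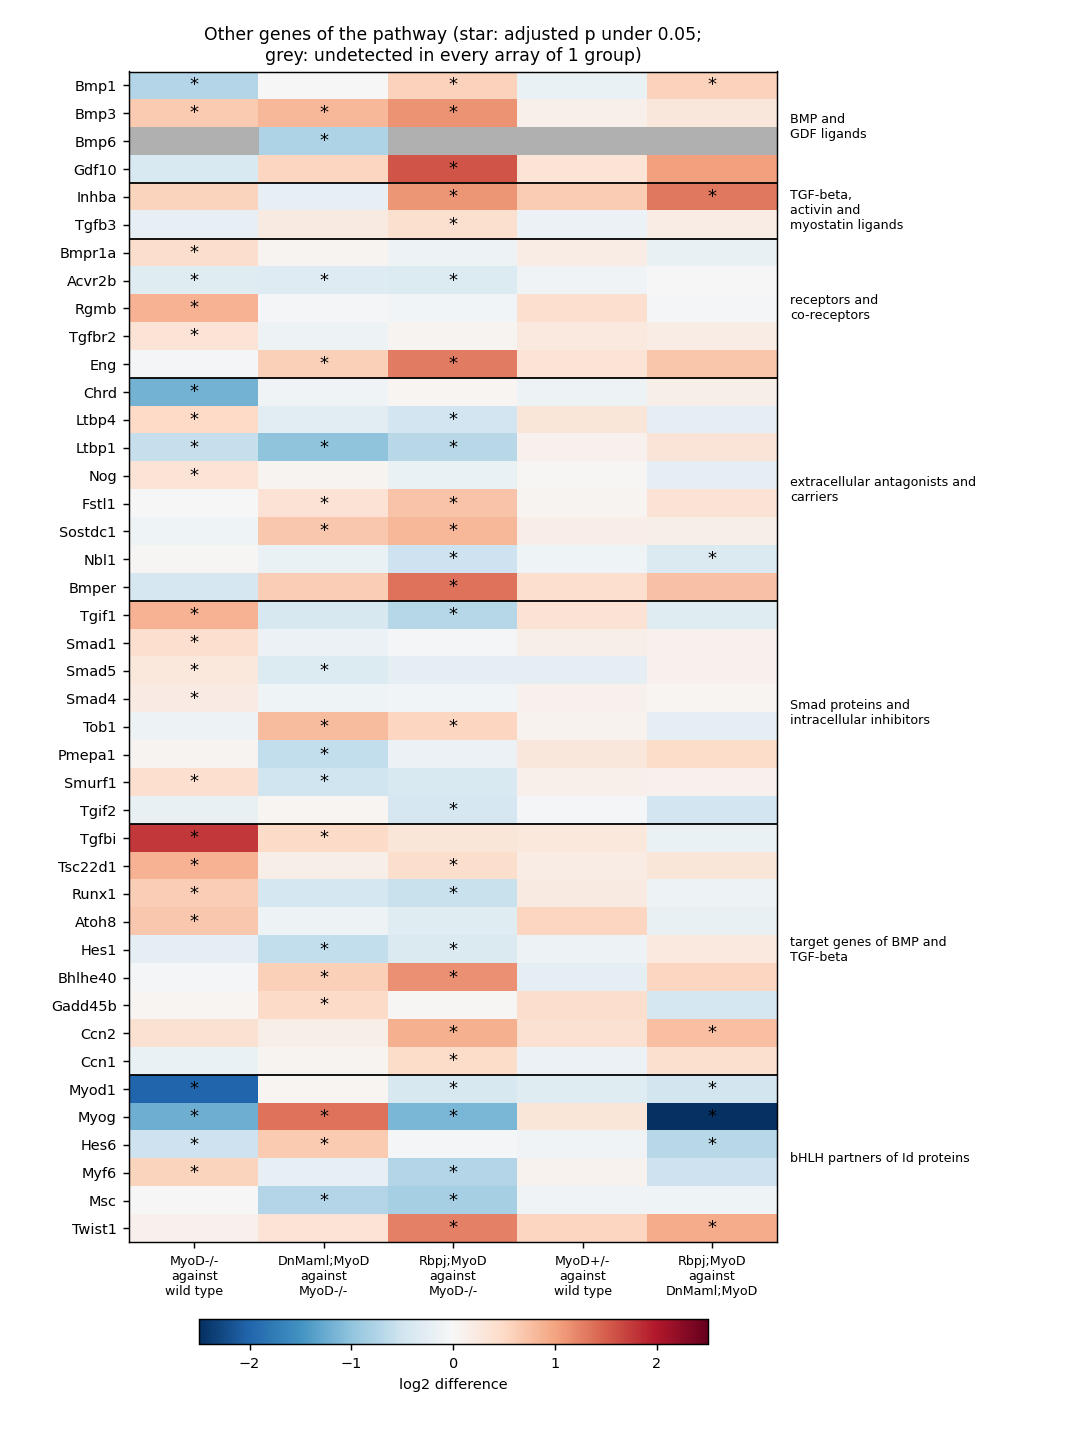
Log2 difference (colour scale) of other pathway genes in the 5 main comparisons, with 1 probe shown for each gene, a star at an adjusted p under 0.05 and grey where all arrays of a group were undetected. Tgfbi stands out in MyoD-/- against wild type at 1.77 and Myog in Rbpj double mutants against DnMaml double mutants at -2.49, while the column of MyoD+/- against wild type has 0 stars.

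Among 4 other genes of TGF-beta, activin and myostatin ligands, 0 were called in the first 2 comparisons along the series. In the third, Rbpj double mutants against MyoD-/-, 2 were higher, where 11.3% of all probes were. They were Inhba, which encodes the activin A subunit that follistatin traps (1.11 ± 0.294, adjusted p = 0.00453), and Tgfb3 (0.40 ± 0.144, 0.0367, lost under scaling to a common median). Inhba also exceeded its DnMaml double-mutant level by 1.32 ± 0.360 (0.0181), the same comparison in which Fst was called. Its group mean was 10.19 in Rbpj double mutants, 9.12 in DnMaml double mutants and 9.24 in MyoD-/-.

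Of 12 receptor and co-receptor genes, 3 were higher and 2 lower in MyoD-/- against wild type, and 1 was higher and 1 lower in each double mutant against MyoD-/-. By probe, 3 higher and 2 lower, 1 and 1, and 1 and 1 of 20 were called, beside 21.3%, 10.4% and 23.2% of all probes. The type I BMP receptor gene Bmpr1a (0.43 ± 0.111, adjusted p = 0.00368), the TGF-beta receptor gene Tgfbr2 (0.34 ± 0.101, 0.0122) and the BMP co-receptor gene Rgmb (0.87 ± 0.255, 0.0122) were higher in MyoD-/- on 1 of 2 probes each. The other probes gave 0.16 for Bmpr1a (adjusted p = 0.233), 0.42 for Tgfbr2 (0.172) and 0.40 for Rgmb (0.165), and that of Bmpr1a was detected in 47 of 47 arrays. The activin receptor gene Acvr2b was lower in each of the 3 comparisons, by -0.31, -0.33 and -0.34 (adjusted p = 0.00761, 0.0149 and 0.00843), the first lost under scaling to a common median. Eng, endoglin, a co-receptor that also marks endothelial cells, was higher in DnMaml double mutants (0.59 ± 0.190, 0.0383, also lost) and in Rbpj double mutants (1.29 ± 0.202, 4.23e-06). It was detected in 7 of 18 MyoD-/- arrays.

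Among 11 other extracellular antagonists and carriers 2 were higher and 2 lower in MyoD-/- against wild type, 2 and 1 in DnMaml double mutants, and 3 and 3 in Rbpj double mutants. By probe, Fst included, 3 higher and 2 lower, 2 and 1, and 4 and 5 of 16 were called, beside 10.7% higher and 10.6% lower, 5.7% and 4.68%, and 11.3% and 11.9% of all probes. Chrd, chordin, which binds BMPs outside the cell, was lower in MyoD-/- by -1.18 ± 0.120 (adjusted p = 5.22e-10), while Nog, noggin, another BMP trap, was higher by 0.33 ± 0.0979 (0.0114). Ltbp4, a carrier of latent TGF-beta, was higher there by 0.51 ± 0.109 (0.000627), with 2 of its 3 probes called. In Rbpj double mutants the BMP modulator gene Bmper was higher by 1.36 ± 0.242 (3.81e-05), the follistatin-like gene Fstl1 by 0.72 ± 0.110 (3.27e-06), and the antagonist gene Nbl1 was lower by -0.53 ± 0.0745 (6.7e-07). Ltbp1, which anchors latent TGF-beta in the matrix, was lower in all 3 comparisons, by -0.57, -1.01 and -0.70 (adjusted p = 0.0024, 3.72e-06 and 0.00084), the first lost under scaling to a common median. Sostdc1, a BMP antagonist gene, was higher in DnMaml double mutants by 0.67 ± 0.216 (0.0385, also lost) and in Rbpj double mutants by 0.83 ± 0.229 (0.00675). It was detected in 8 of 18 MyoD-/- arrays, and the double mutants were not shown to differ (0.16, adjusted p = 0.848). Fstl1 was higher in DnMaml double mutants too, by 0.36 ± 0.104 (0.0194, also lost).

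Smad genes and intracellular inhibitors had 5 higher and 0 lower of 12 in MyoD-/- against wild type, beside 10.7% and 10.6% of all probes. In DnMaml double mutants against MyoD-/- 1 was higher and 3 lower, beside 5.7% and 4.68%. Rbpj double mutants against MyoD-/- had 1 and 3, beside 11.3% and 11.9%. A gene with several probes counts where 1 is called, so gene counts and probe shares are not on 1 scale. In MyoD-/- the repressor gene Tgif1 (0.87 ± 0.148, adjusted p = 2.15e-05), Smad1 (0.42 ± 0.0953, 0.00113), Smad5 (0.26 ± 0.0819, 0.0189) and Smad4 (0.20 ± 0.0623, 0.0193) were higher; Smad1 and Smad5 carry the BMP signal and Smad4 is the shared partner. Tgif1 was lower in Rbpj double mutants by -0.71 ± 0.166 (0.0014). Smad5 was lower in both double mutants, by -0.34 and -0.41 (adjusted p = 0.00658 and 0.013), on different probes, the first lost under scaling to a common median. In each of the 3 comparisons 1 of the 3 Smad5 probes was called. Tob1, an antiproliferative gene, was higher in DnMaml double mutants by 0.79 ± 0.171 (0.00151) and in Rbpj double mutants by 0.53 ± 0.182 (0.0292), both lost under that scaling, and the repressor gene Tgif2 was lower in Rbpj double mutants by -0.42 ± 0.125 (0.0113). Pmepa1 and Smurf1, inhibitors of Smad signalling, were called lower in DnMaml double mutants (0.00799 and 0.0225), where each was detected in 2 of 8 arrays. The median over the 20 probes of this list was 0.14 in MyoD-/- against wild type and -0.20 and -0.16 in DnMaml double mutants and Rbpj double mutants against MyoD-/-, beside -0.00, -0.02 and -0.03 over all probes.

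Of 11 target genes of BMP and TGF-beta other than the Id members, 4 were higher and 0 lower in MyoD-/- against wild type. The shares of all probes there were 10.7% and 10.6%. In DnMaml double mutants against MyoD-/- 3 were higher and 1 lower, beside 5.7% and 4.68% of all probes. Rbpj double mutants against MyoD-/- had 5 and 2, beside 11.3% and 11.9%. Tgfbi, a TGF-beta-induced matrix protein gene, was higher in MyoD-/- by 1.77 ± 0.10 (adjusted p = 5.03e-17), and Tsc22d1 by 0.88 ± 0.137 (6.08e-06). Ccn2, a matricellular TGF-beta target, was higher in Rbpj double mutants than in MyoD-/- by 0.89 ± 0.193 (0.00057), and than in DnMaml double mutants by 0.75 ± 0.236 (0.047), the second lost under scaling to a common median. Bhlhe40, a bHLH repressor gene, was higher in Rbpj double mutants by 1.14 ± 0.155 (3.22e-07) and in DnMaml double mutants by 0.60 ± 0.146 (0.0044, lost under that scaling). Hes1, which Notch also induces, was lower in DnMaml double mutants by -0.61 ± 0.101 (3.73e-05) and in Rbpj double mutants by -0.36 ± 0.107 (0.0113), and the double mutants were not shown to differ (0.25, adjusted p = 0.342). Runx1 was higher in MyoD-/- by 0.62 ± 0.142 (0.00132) and lower in Rbpj double mutants by -0.56 ± 0.160 (0.00844). Gadd45b was higher in DnMaml double mutants by 0.47 ± 0.133 (0.0158) and Ccn1, a relative of Ccn2, in Rbpj double mutants by 0.46 ± 0.127 (0.00588), both lost under scaling. Atoh8 was called higher in MyoD-/- (0.0169, also lost), with 1 of 10 wild-type arrays detected.

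Among the bHLH factors, the family through which Id proteins act, Myog (myogenin, a differentiation factor) was lower in MyoD-/- than in wild type by -1.22 ± 0.193 (adjusted p = 7e-06), higher in DnMaml double mutants than in MyoD-/- by 1.35 ± 0.205 (7.12e-06) and lower in Rbpj double mutants by -1.14 ± 0.217 (0.000106). The difference between the double mutants was -2.49 ± 0.266 (1.76e-08), with Rbpj double mutants lower. A second, dimmer Myog probe, detected in 22 of 47 arrays, was called only between the double mutants (-0.89, adjusted p = 0.0486). Hes6, which promotes myogenic differentiation, was lower in MyoD-/- by -0.52 ± 0.108 (0.000434) and higher in DnMaml double mutants by 0.65 ± 0.115 (0.000103). Myf6, a MyoD relative, was higher in MyoD-/- by 0.56 ± 0.163 (0.0102) and lower in Rbpj double mutants by -0.73 ± 0.183 (0.00281). Msc, a repressor of the family that marks progenitors, was lower in both, by -0.73 ± 0.0725 in DnMaml double mutants (2.01e-09) and -0.83 ± 0.0770 in Rbpj double mutants (5.25e-11). Twist1 was higher in Rbpj double mutants by 1.26 ± 0.238 (9.03e-05). Of 10 genes in this list 1 was higher and 3 lower in MyoD-/- against wild type, beside 10.7% and 10.6% of all probes. In DnMaml double mutants against MyoD-/- 2 and 1 were called, beside 5.7% and 4.68%. Rbpj double mutants against MyoD-/- had 1 and 4, beside 11.3% and 11.9%. Myod1 itself is among the 3 lower and the 4 lower genes, and its call in MyoD-/- against wild type was set by the genotype.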

How the data were processed

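Amplified RNA of 47 sorted samples was hybridised to Illumina bead arrays on 7 chips. The deposited table holds, per the file headers, each probe's signal as a non-normalized intensity and its detection p-value in every array. Per the submitters' processing notes, the scans were read with GenomeStudio (2010.1). A second deposited table holds the authors' processed values on a log2 scale, used as an alternative; no genome build is given in the sources used here. Genes were named from the platform annotation through RefSeq symbols: 23978 probes had 1 symbol, 0 had several and 1719 had none, and 23962 were matched by gene number.

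The intensities were background-corrected by normexp on the detection p-values with an offset of 16, quantile-normalized and taken to log2 (neqc, limma 3.58.1, R 4.3.3). Probes with a detection p under 0.01 in at least 4 arrays were kept, 12482 of 25697, and each was tested on its own. A linear model with genotype and chip (lmFit and eBayes, 36 residual degrees of freedom) gave two-sided p-values, adjusted by Benjamini-Hochberg over all 12482 probes and called under 0.05. Levels are on the normalized log2 scale and are not comparable between probes. A detected probe is one with a detection p under 0.01. Precision is limited by the number of arrays. The fit was tested on simulated data.

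The genes and lists were chosen with earlier results of these data known. Text names every probe of the 9 genes, the checks Myod1, Rbpj, Maml1 and Vcam1, up to 4 other genes of each pathway list with the lowest adjusted p among those called in a comparison, and the 3 transcripts most correlated with a called gene. Marker genes were named from the fixed marker lists after their values were seen. Maml1 was called in 0 of the 5 main comparisons. The 9 marker lists covered muscle progenitors, differentiating muscle, fibroblasts, smooth muscle and pericytes, and endothelial, Schwann and neural crest, tendon and cartilage, erythroid and leukocyte cells. Alternatives covered background, scaling, the dim-probe filter, the chip term, chips and samples left out and a replicate block. The averaging of 6 array pairs of chips 6 and 7 and leaving out MyoD-/- replicates 16 and 18 with or without replicate 1 were chosen after seeing the data.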

Additional observations from a re-analysis of the deposited data

Results flagged for a closer look

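Of 40 groups of levels checked, 2 held a sample far from the others, and chance flags about 1 in 20 such groups. The groups of 18 MyoD-/- samples were too large for this check, so Fst in MyoD-/- replicate 1, described above, could not be flagged. Id2 probe 2 in Rbpj double-mutant replicate 1 had a log2 level of 7.87, with the nearest other sample at 6.81 and the lowest at 6.26. The gap was 0.657 of the range, past the 95% critical value of Dixon for 7 samples. Without this sample, Rbpj double mutants minus MyoD-/- for this probe was -0.44 (limma adjusted p = 0.0497), against -0.36 (0.115) with it. Id3 in MyoD+/- replicate 2 had a level of 11.08, with the nearest other sample at 10.63 and the lowest at 10.57, a gap of 0.879 of the range, past that for 4 samples.

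The effects of the 2 double mutants on Fst differed in the reported fit: Rbpj double mutants minus DnMaml double mutants was 1.16 (log2, limma adjusted p = 0.0242), by the test of that difference itself. The difference was called in 13 of 21 other settings and in 42 of 47 leave-outs of 1 sample.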

How the results depend on the processing

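Over 21 other settings and 47 leave-outs of 1 sample, 0 called results changed sign. Bmp7 was called in 20 of 21 settings and 47 of 47 leave-outs in each of its 3 main comparisons, as was Fst in Rbpj double mutants against MyoD-/-. Of 10 probes, the number called in MyoD-/- against wild type (1 as reported) was 2 with no chip term, with chip as a random block, with only the chips that hold all 5 genotypes and without chip 2, where Bmp4 was added. It was 2 without chip 7 and without MyoD-/- replicates 16 and 18, where Tgfb2 was added, and 1 to 2 over the leave-outs. In DnMaml double mutants against MyoD-/- (1 as reported) it was 3 with only the chips that hold all 5 genotypes and without chip 1, with both Id2 probes added, 2 without MyoD-/- replicates 1, 16 and 18, and 1 to 2 over the leave-outs. In Rbpj double mutants against MyoD-/- (2 as reported) it was 2 to 3 over the leave-outs. In Rbpj double mutants against DnMaml double mutants (1 as reported) it was 0 with arrays scaled to a common median, with no chip term, without chip 4, 5, 6 or 7 and with 6 array pairs of chips 6 and 7 averaged, and 0 to 1 over the leave-outs. In MyoD+/- against wild type it was 0 throughout. The cause was not tested.

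Replicate numbers in the titles did not pair the samples: over 63 same-number pairs the median correlation of deviations was -0.029 (-0.356 to 0.282), and 1 of 39 samples correlated best with its own number. A replicate block, which left 19 residual degrees of freedom, gave 1, 0, 0, 0 and 0 called probes in the 5 main comparisons, the 1 being Tgfb2 (-0.55, adjusted p = 0.0214), and 1417, 239, 97, 0 and 97 calls over all probes.

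Counts over all probes moved by over 1.5 times in some settings. MyoD-/- against wild type, 2661 as reported, gave 1715 with arrays scaled to a common median, 1611 with no chip term, 1486 with only the chips that hold all 5 genotypes and 1382 without chip 2. Its split under scaling was 1168 higher and 547 lower, against 1333 and 1328. DnMaml double mutants against MyoD-/-, 1296 as reported, gave 693 under scaling, 739 with no chip term, 2282 with only the chips that hold all 5 genotypes, 701 without chip 5 and 2033 without MyoD-/- replicates 1, 16 and 18. Rbpj double mutants against MyoD-/- split into 833 higher and 1202 lower under scaling, against 1416 and 1485. Rbpj double mutants against DnMaml double mutants, 770 as reported, gave 457 under scaling, 461 without chip 6, 409 without chip 7, 437 with the array pairs averaged and 502 without Rbpj double-mutant replicate 7. MyoD+/- against wild type gave 2 without MyoD+/- replicate 4. Counting every array as its own replicate was the same as the reported fit, since chips 6 and 7 were not joined: 8 of their 12 arrays correlated best with the array at the same position.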
